A study of Arabidopsis thaliana with 15 samples.

Results

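This report describes the genes whose transcript levels separated rosettes expressing the whole NAC052 reading frame from rosettes expressing a 5'truncated one, both under the GLDT promoter of Flaveria trinervia. The comparison used 6 of the 15 libraries of the series, 3 biological replicates of each line, and these 6 were sequenced on lane 8 of the instrument according to the library names. The GLDT::NAC052 line carried the whole coding sequence behind the promoter, and the GLDT::5'truncatedNAC052 line carried the coding sequence without its 5' part. Both constructs were inserted at random positions of the genome and both lines kept their own NAC052 gene. Every line was Col-0 and carried the same bundle sheath reporter, in which the GLDPA promoter of F. trinervia drives synthetic GFP behind the transit peptide of the Arabidopsis RbcS protein. The 9 other libraries came from the reference line, which has the reporter alone, from an activation-tagged line with the GLDT promoter inserted in the NAC052 coding sequence, and from a CRISPR/Cas line with a nucleotide insertion in NAC052. They entered the model that estimates the spread and are given as levels beside the 2 GLDT lines. Complete rosettes were taken after 28 days in soil. As each construct is given as 1 line, the effect of the reading frame and that of the insertion site or of the line's history cannot be told apart.

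NAC052 belongs to the NAC family of transcription factors, which bind DNA through an N-terminal NAC domain. With its close relative NAC050 it associates with the histone demethylase JMJ14. Many of the genes described here belong to the jasmonate pathway. Jasmonate is made from linolenic acid by lipoxygenase, allene oxide synthase, allene oxide cyclase and OPDA reductase, followed by shortening of the side chain in peroxisomes. Conjugation to isoleucine gives the active hormone, which triggers degradation of the JAZ repressors and so releases the transcription factor MYC2. MYC2 activates the synthesis genes and the JAZ genes themselves, and cytochrome P450 enzymes of the CYP94 family inactivate the hormone by oxidation. In rosettes the pathway is best known from wounding and herbivory.

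The start codons of both reading frames are shown in capitals below because they are the designed difference between the lines. NAC052 lies on the plus strand of chromosome 3 at positions 3267825 to 3271202 of TAIR10, and its longest annotated coding sequence has 1356 bases in 4 coding exons, or 452 codons with the stop codon. The whole frame opens at chr3:3268075-3268134 in coding exon 1. The truncated frame was taken to open at the ATG of codon 149, at position 3268944 in coding exon 2, as this is the in-frame ATG that leaves the length stated for the construct. It keeps 304 codons, 67.3% of the total, and the window chr3:3268914-3268994 is shown. Both sequences are from the TAIR10.1 assembly in RefSeq and run 5′ to 3′.
NAC052, whole frame: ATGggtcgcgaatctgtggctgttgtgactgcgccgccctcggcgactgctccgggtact
NAC052, truncated frame: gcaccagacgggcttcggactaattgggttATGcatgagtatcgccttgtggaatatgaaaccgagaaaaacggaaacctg

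Library totals of the 6 libraries ran from 33681922 to 38579309 counts. Pearson's r of log2 CPM, where CPM is the count per 1000000 counts of the scaled library size, across genes was 0.975 to 0.984 among the GLDT::NAC052 replicates, 0.973 to 0.983 among the GLDT::5'truncatedNAC052 replicates and 0.951 to 0.979 between the lines. Markers of other organs were low or absent. The summed level of the 2 root markers that could be tested was 1.28 to 4.59 CPM in GLDT::NAC052 and 0.865 to 1.33 CPM in GLDT::5'truncatedNAC052, and that of the 2 flower markers was 0.457 to 0.643 and 0.706 to 1.73 CPM. One of them, AG, was lower in GLDT::NAC052 (log2 fold change -1.43, adjusted p = 0.0449). The 3 green leaf markers summed to 12900 to 17600 and 15600 to 21200 CPM, and the 4 guard cell and 4 companion cell and bundle sheath markers had no member that passed the test. The 3 tested markers of senescing leaves summed to 5.20 to 18.3 and 6.17 to 6.57 CPM, and the 2 trichome markers did not pass the filter on low counts. The part of these tissues in the results below was not tested. In bulk rosettes fewer cells of a type and less RNA per cell cannot be told apart.

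Transcripts of NAC052 itself, AT3G10490, were at 279.9, 27.2 and 165.0 CPM in GLDT::NAC052 replicates 1, 2 and 3, and at 25.0, 66.0 and 52.5 CPM in the GLDT::5'truncatedNAC052 replicates. Replicate 2 of GLDT::NAC052 thus stood apart from its line, and its level lay near the 19.5 to 20.6 CPM of the reference line. Replicate 1 of GLDT::5'truncatedNAC052, at 25.0 CPM, also lay near that range. The NAC052 level of neither library therefore bears out its label, and whether each came from the labelled line was not tested. Both were kept as labelled, and counts of calls are also given without each of them. The groups overlapped, with means of 157.4 ± 127 and 47.8 ± 20.9 CPM (SD, n = 3), a fold change of 1.72 on the log2 scale (standard error 0.54, adjusted p = 0.066, edgeR) and an exact permutation p of 0.3 (two-sided, 0.1 being the smallest that 3 against 3 allow). The gene-level count does not tell the construct from the endogenous transcript. Transcripts of the neighbouring gene NAC050 were at 10.99, 25.5 and 15.8 CPM in GLDT::NAC052 and at 24.5, 27.8 and 33.1 CPM in GLDT::5'truncatedNAC052. Within GLDT::NAC052 the order of NAC050 levels was the reverse of that of NAC052, and NAC050 did not pass the test (log2 fold change -0.71, adjusted p = 0.0568; exact permutation p = 0.2). JMJ14 was at 34.8 to 37.1 CPM in GLDT::NAC052 and at 36.5 to 39.6 CPM in GLDT::5'truncatedNAC052. None of the 19 tested genes of RNA silencing and the JMJ14 module was called by edgeR, and DESeq2 called 1 and limma voom 0. An unadjusted p under 0.05 was seen for 12 of the 19 and for 4945 of all 19663 genes tested. An adjusted p under 0.05 without the fold limit was seen for 4 and 1680. The libraries of 7 of the 19 lay wholly lower in GLDT::NAC052, against 10.5% of all genes, and 4 had a log2 fold change above 0. The median log2 fold change of the 19 was -0.34.

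**Figure D1:**
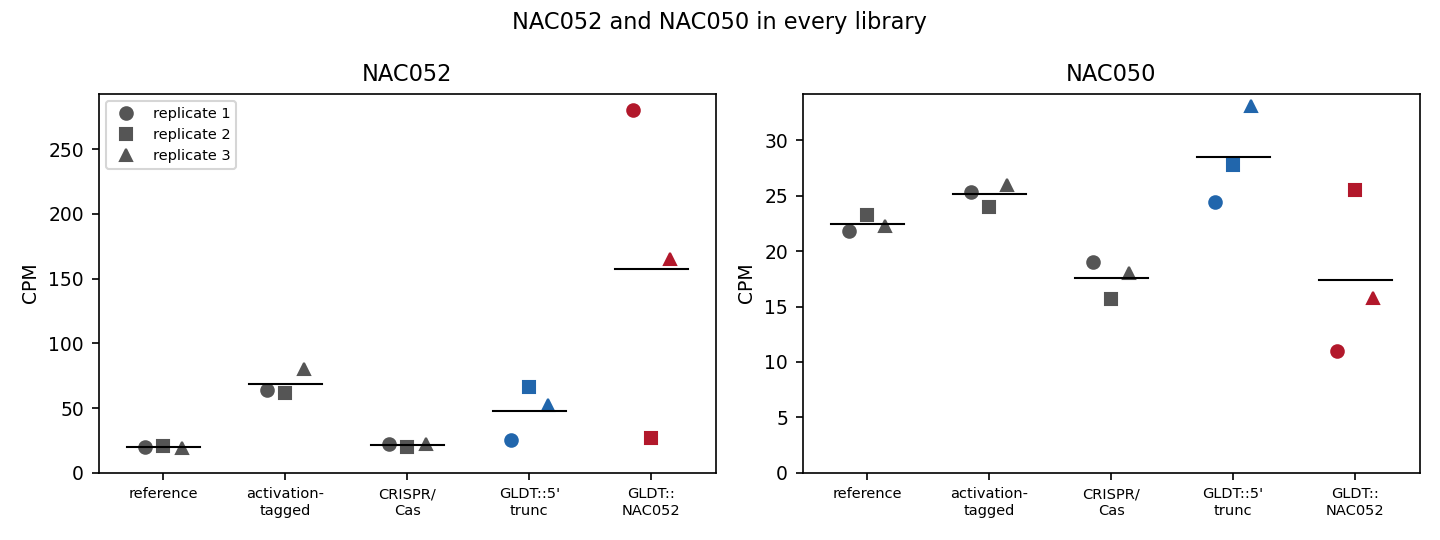
NAC052 (left) and NAC050 (right) in CPM in each of the 15 libraries. Circles, squares and triangles are replicates 1, 2 and 3 and the bar is the mean of a line. NAC052 in GLDT::NAC052 replicate 2 (27.2 CPM) lies near the reference line, while replicates 1 and 3 are at 279.9 and 165.0 CPM. GLDT::5'truncatedNAC052 replicate 1 (25.0 CPM) also lies near the reference line.

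Of 19663 genes tested, 345 (1.75%) were differential at an adjusted p under 0.05 and a fold change above 2 or below 0.5. More genes were higher than lower in GLDT::NAC052, with 292 (1.49%) against 53 (0.27%), and their median log2 fold changes were 1.42 and -1.21. The 3 libraries of one line lay wholly above or below those of the other for 281 of the 292 and for 46 of the 53. Over all genes tested, such a separation was seen for 2382 genes (12.1%) upward and 2063 (10.5%) downward. Without GLDT::NAC052 replicate 2 the model called 323 genes, 230 higher and 93 lower, of which 229 were among the 345. Over all genes tested, the spread shared by 15 libraries was narrower than that within the 2 GLDT lines. The median SD of log2 CPM over these genes was 0.189 in GLDT::NAC052 and 0.2 in GLDT::5'truncatedNAC052, against 0.128 to 0.152 in the other lines. Over the 345 called genes it was 0.407 and 0.417 in these 2 lines. The reference line had 0.437 there, the activation-tagged line 0.254 and the CRISPR/Cas line 0.24. A model of the 6 libraries alone called 13 genes, and one with a weight for each line called 187. With the replicate number as a block, 486 genes were called from the 6 libraries and 400 from all 15, although the labels name no shared batch. The count was 132 without GLDT::NAC052 replicate 3, 134 without GLDT::5'truncatedNAC052 replicate 1, 97 without its replicate 2 and 664 without its replicate 3, and 68 of the 345 genes were called whichever of the 6 libraries was left out. Genes described below that were called in fewer than these 6 fits include CYP94B1, JAZ10, CER1, XTH31 and ZAT10 with 2. RRTF1, UGT76E1, CML38 and MAPKKK21 were called in 3, and CYP94B3 and AT2G22880 in 4.

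**Figure D2:**
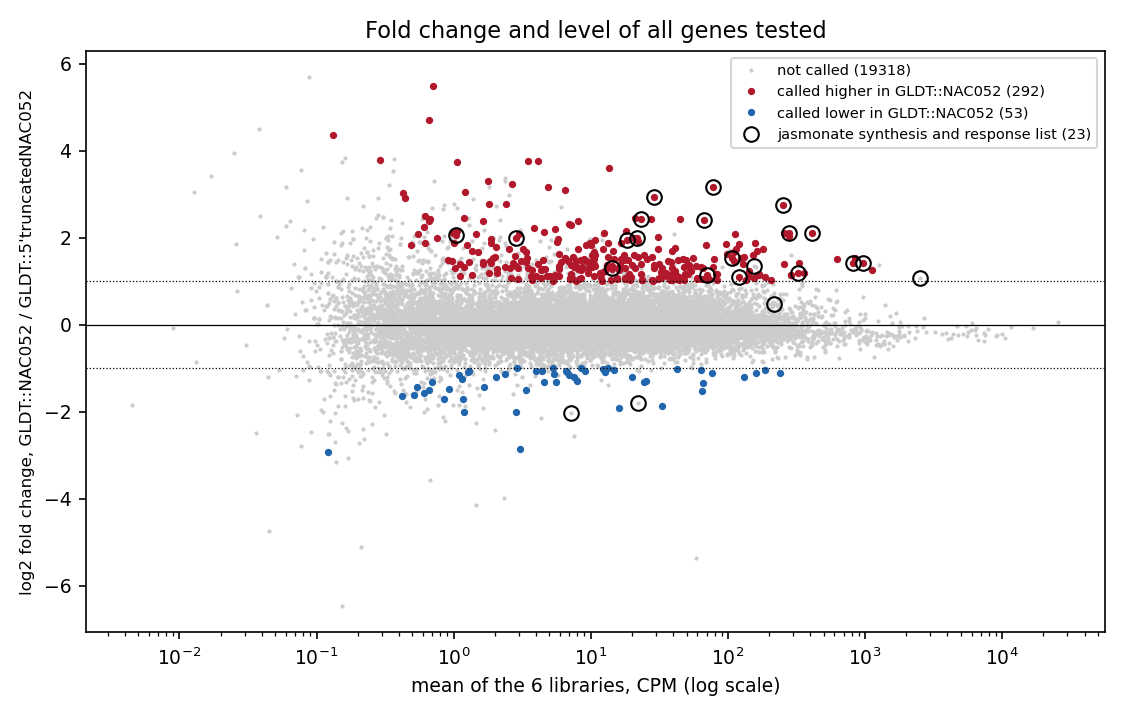
Log2 fold change of GLDT::NAC052 over GLDT::5'truncatedNAC052 (vertical axis) against the mean of the 6 libraries in CPM (horizontal, log scale) for the 19663 genes tested. Red and blue points are the 292 and 53 differential genes, open circles the 23 genes of the jasmonate synthesis and response list, and dotted lines a fold change of 2; most circles lie above the upper line.

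Among the gene lists, that of jasmonate synthesis and response held the most differential genes. Of its 23 genes, 17 rose in GLDT::NAC052 and 0 fell, against 1.49% and 0.27% of all genes tested. The list's median log2 fold change was 1.54, and that of all genes was -0.02. For 20 of the 23 genes every GLDT::NAC052 library lay above every GLDT::5'truncatedNAC052 library, against 12.1% of all genes tested. Without GLDT::NAC052 replicate 2 the model called 12 of the 23. It called 4 without GLDT::NAC052 replicate 3, 4 without GLDT::5'truncatedNAC052 replicate 1 and 3 without its replicate 2, and it called 2 with the 6 libraries alone and 9 with a weight for each line. With the replicate number as a block, more than 17 of the 23 were called.

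Genes of the synthesis steps rose from the first enzyme onward. LOX3, a 13-lipoxygenase, was at 277, 547 and 500.1 CPM in GLDT::NAC052 and at 76.1, 40.5 and 80.9 CPM in GLDT::5'truncatedNAC052. The groups were far apart. Their log2 fold change was 2.75 (standard error 0.49, adjusted p = 0.00718, edgeR), and the call held whichever of the 6 libraries was left out. LOX4, a second 13-lipoxygenase, was at 20.2, 41.0 and 42.5 CPM against 6.66, 7.59 and 11.9 CPM (log2 fold change 1.99, adjusted p = 0.00645). LOX2, which is the main lipoxygenase of the wounded leaf, was at 2749, 3972 and 3594 CPM against 1143, 2345 and 1393 CPM. Its libraries did not overlap either, but the change missed the threshold (log2 fold change 1.08, adjusted p = 0.0796).

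AOS, the allene oxide synthase, was at 1002, 1717 and 1547 CPM in GLDT::NAC052 and at 454, 502 and 634 CPM in GLDT::5'truncatedNAC052 (log2 fold change 1.42, standard error 0.31, adjusted p = 0.0179, edgeR). The allene oxide cyclase genes of the list rose, AOC1, AOC2 and AOC3, by 2.11, 1.41 and 2.42 on the log2 scale. These copies are alike in sequence, so that reads may have been divided among them. OPR3, the OPDA reductase, was at 316, 507 and 549.6 CPM against 79.9, 89.2 and 147 CPM (log2 fold change 2.12, adjusted p = 0.0203). The lowest GLDT::NAC052 library was more than 2 times the highest GLDT::5'truncatedNAC052 library for OPR3.

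The supply of the precursor and the peroxisomal steps were less uniform. Of 6 such genes, which were gathered after values were seen, 2 rose. DAD1, a phospholipase that releases linolenic acid in anthers, was at 2.74, 5.66 and 11.1 CPM in GLDT::NAC052 and at 0.564, 0.418 and 0.435 CPM in GLDT::5'truncatedNAC052 (log2 fold change 3.77, adjusted p = 0.00645). Each GLDT::NAC052 library was thus several times above each GLDT::5'truncatedNAC052 library. ACX1, an acyl-CoA oxidase, was at 235 to 337 CPM against 120 to 155 CPM (log2 fold change 1.03, adjusted p = 0.00389). OPCL1, the OPC-8:0 CoA ligase, had a log2 fold change of 0.82 (adjusted p = 0.0321), below the fold limit, and the other 3 genes were not called.

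Genes that conjugate, oxidise or cleave the hormone were higher as well. Of 10 tested genes of this kind, a list likewise gathered after values were seen, 9 rose, with a median log2 fold change of 2.25. JAR1, which conjugates jasmonate to isoleucine, was at 147, 278 and 316 CPM in GLDT::NAC052 and at 69.7, 59.6 and 70.96 CPM in GLDT::5'truncatedNAC052 (log2 fold change 1.89, standard error 0.24, adjusted p = 0.00257). CYP94B3, a 12-hydroxylase of jasmonoyl-isoleucine, was at 86.5, 167 and 171 CPM against 10.9, 19.1 and 17.3 CPM. Its log2 fold change was 3.16 (standard error 0.70, adjusted p = 0.0176), and its level averaged 0.532 CPM in CRISPR/Cas and 0.242 CPM in activation-tagged plants. The reference replicates had 1.47, 3.15 and 18.5 CPM, the highest of which lay within the range of GLDT::5'truncatedNAC052. CYP94C1, which oxidises the hydroxylated hormone further, was at 41.1, 70.3 and 42.4 CPM against 6.02, 4.55 and 9.35 CPM (log2 fold change 2.95, standard error 0.41, adjusted p = 0.0028). CYP94B3 and CYP94C1 were also among the 13 genes called from the 6 libraries alone, with an adjusted p of 0.0427 each.

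CYP94B1, a relative of CYP94B3, was at 10.4, 27.1 and 37.6 CPM against 1.21, 2.26 and 2.69 CPM (log2 fold change 3.61, adjusted p = 0.0341). The amidohydrolase genes IAR3 and ILL6, whose products cleave amino acid conjugates of hormones, rose by 1.61 and 1.85 on the log2 scale. AT5G05600 and JRG21, members of a group of 2-oxoglutarate-dependent oxygenases that hydroxylate jasmonate, rose by 2.04 and 2.46, whereas AT2G38240 of the same group missed the threshold (log2 fold change 1.48, adjusted p = 0.15). UGT76E1, a glycosyltransferase of hydroxylated jasmonate, was at 4.43, 11.4 and 10.5 CPM against 0.698, 0.195 and 2.04 CPM (log2 fold change 3.16, adjusted p = 0.0192). Log2 fold changes were 1.31 for the jasmonate methyltransferase gene JMT and 0.49 for the sulfotransferase gene ST2A, with adjusted p-values of 0.0656 and 0.579.

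All 8 tested JAZ repressor genes of the list rose, by 1.09 to 2.43 on the log2 scale. JAZ10 was at 21.8, 42.1 and 53.4 CPM in GLDT::NAC052 and at 5.05, 6.92 and 9.78 CPM in GLDT::5'truncatedNAC052 (log2 fold change 2.43, standard error 0.62, adjusted p = 0.0301). JAZ1 was at 102, 163 and 215 CPM against 43.6, 50.3 and 71.3 CPM (log2 fold change 1.54, adjusted p = 0.0173). The other 6 were JAZ2, JAZ5, JAZ6, JAZ7, JAZ8 and JAZ9, and their groups did not overlap. MYC2 was at 166, 259 and 248 CPM against 72.8, 80.1 and 112 CPM, without overlap, but did not pass the test (log2 fold change 1.35, adjusted p = 0.191, edgeR).

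The vegetative storage protein genes VSP1 and VSP2, common markers of the jasmonate response, did not follow the rest of the list. VSP2 was at 7.30, 8.54 and 13.6 CPM in GLDT::NAC052 and at 3.12, 94.4 and 5.38 CPM in GLDT::5'truncatedNAC052. VSP1 had the same pattern, with 1.59, 2.39 and 4.44 CPM against 1.18, 31.9 and 1.22 CPM. Replicate 2 of GLDT::5'truncatedNAC052 set both means, and neither gene was called (log2 fold changes -1.80 and -2.02, adjusted p = 0.312 and 0.28). Without that library the log2 fold changes were 1.21 and 1.22.

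Within GLDT::NAC052 the jasmonate genes did not rank like NAC052. In all 17 differential genes of the list, GLDT::NAC052 replicate 1, which had the most NAC052, was the lowest library of its line. Replicate 2, with the least NAC052, was the highest for 6 of them and replicate 3 for 11. In GLDT::5'truncatedNAC052, replicate 1, with the least NAC052, was the lowest for 11 of the 17. Replicate 2, with the most NAC052 of that line, was the lowest for 6, and replicate 3 was the highest for 15. A link with the NAC052 level was not tested. The median log2 CPM of the 23 genes was 6.44, 7.35 and 7.53 in GLDT::NAC052 replicates 1, 2 and 3, and 5.24, 5.44 and 5.68 in the GLDT::5'truncatedNAC052 replicates. The reference replicates had 2.80, 4.94 and 5.63, the CRISPR/Cas replicates 4.82 to 5.17 and the activation-tagged ones 2.95 to 3.09.

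**Figure D3:**
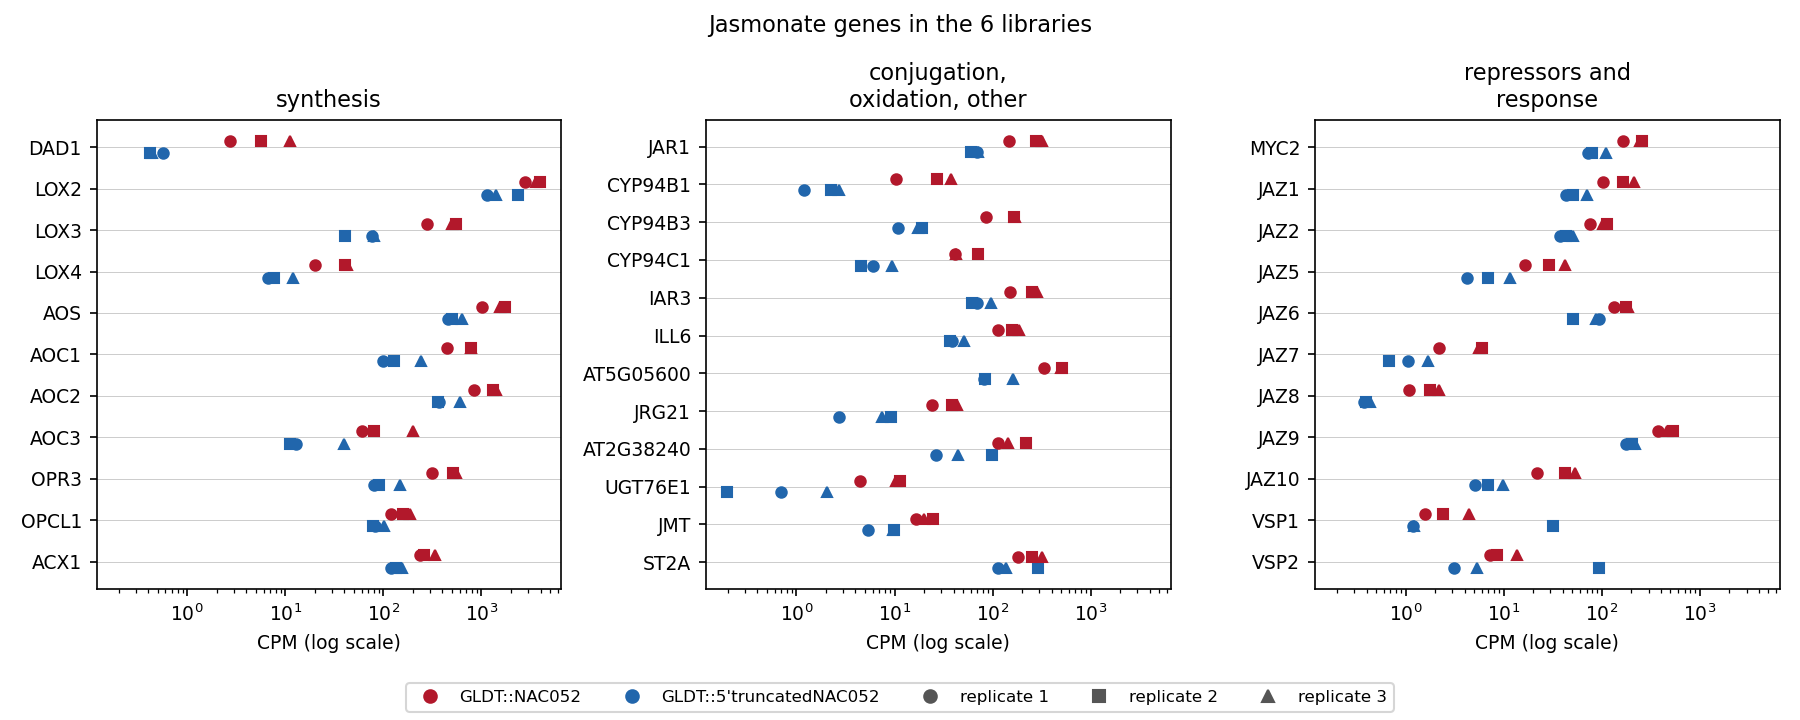
Level of 34 jasmonate genes in CPM (log scale) in the 3 GLDT::NAC052 (red) and 3 GLDT::5'truncatedNAC052 (blue) libraries, with circles, squares and triangles for replicates 1, 2 and 3. The red points lie to the right of the blue ones for nearly all genes, except VSP1, VSP2 and ST2A, where the GLDT::5'truncatedNAC052 replicate 2 (blue square) is high.

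The G-box, CACGTG, is the element that MYC2 binds. It lay within 250 bases before the annotated transcript start of 4 of the 17 rising jasmonate genes (23.5%), of 49 of 291 genes higher in GLDT::NAC052 (16.8%) and of 3 of 52 lower genes (5.77%), against 7.41% of the 19307 tested genes with such a promoter. The 4 are shown with the G-box in capitals, in the direction of transcription, from 30 bases before the G-box. Those of AOS, JAZ7 and JAZ8 run to the base before the start. That of JAZ2 ends 30 bases after its G-box, which begins 66 bases before the start. The 4 stretches come from chr5:17099596-17099631 (minus strand), chr1:28150477-28150542 (minus), chr2:14572966-14573029 (plus) and chr1:10596312-10596351 (plus) of TAIR10.1.
AOS: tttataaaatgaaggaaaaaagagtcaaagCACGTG
JAZ2: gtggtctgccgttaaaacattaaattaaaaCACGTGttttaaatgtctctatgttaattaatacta
JAZ7: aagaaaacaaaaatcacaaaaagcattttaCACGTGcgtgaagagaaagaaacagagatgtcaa
JAZ8: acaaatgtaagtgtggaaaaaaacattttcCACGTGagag
The DRE core CCGAC, bound by CBF factors, was in 21.3% of the higher and 13.5% of the lower genes against 13.0% of those tested. For the CAMTA core CGCGT the shares were 11%, 3.85% and 7.56%, for the W-box core TTGAC 51.5%, 50.0% and 44.9%, and for the GCC-box GCCGCC 1.72%, 5.77% and 1.92%. Of the 17 rising jasmonate genes, 3 had the CAMTA core (17.6%), 1 the DRE core (5.88%), 9 the W-box core (52.9%) and 0 the GCC-box. The palindromic motif described for NAC050 and NAC052 was in 0.523% of the tested promoters and in 0 of the 291 and 0 of the 52. Both strands were searched, and these shares are a description without a test.

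Other transcription factor genes also rose. The list counts from here on stand against 1.49% higher and 0.27% lower of all genes tested. RRTF1, a jasmonate-inducible ERF factor, had the largest rise of all genes with separate groups and a mean of at least 1 CPM. It was at 4.05, 7.23 and 11.8 CPM in GLDT::NAC052 and at 0.672, 0.0837 and 0.924 CPM in GLDT::5'truncatedNAC052 (log2 fold change 3.77, standard error 0.88, adjusted p = 0.0225). Of 37 tested genes in a list matched by ERF, CBF and related gene symbols, 5 rose and 0 fell, with a median log2 fold change of 0.39. That list is not the whole family, as RRTF1 is not in it. It also holds NAP57, which is not an ERF or CBF factor and was not called. ERF4, a repressor, was at 64.0, 84.1 and 102.5 CPM against 24.2, 29.0 and 32.8 CPM (log2 fold change 1.54, standard error 0.17, adjusted p = 0.00183). RAP2.6 was at 46.2, 53.0 and 99.2 CPM against 6.90, 25.1 and 14.6 CPM and did not pass (adjusted p = 0.0793).

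Among 53 tested WRKY genes 6 rose and 0 fell, with a median log2 fold change of 0.31. WRKY18, a regulator of pathogen responses, was at 35.0, 58.2 and 57.3 CPM in GLDT::NAC052 and at 10.96, 11.1 and 14.8 CPM in GLDT::5'truncatedNAC052 (log2 fold change 2.03, standard error 0.29, adjusted p = 0.00291). It was also called from the 6 libraries alone (adjusted p = 0.0427). Of 68 tested NAC genes 3 rose (4.41%, against 1.49% of all genes tested), namely NAC019, NAC032 and AT3G15500, and 0 fell. NAC019 was at 33.2, 52.5 and 83.8 CPM against 17.1, 14.0 and 31.1 CPM (log2 fold change 1.45, adjusted p = 0.0326).

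Of 26 tested genes of the early touch, cold and wound response, 4 rose and 0 fell, with a median log2 fold change of 0.43. ZAT6, a zinc finger protein gene, was at 21.4, 26.9 and 51.1 CPM against 7.23, 6.92 and 10.9 CPM (log2 fold change 1.99, adjusted p = 0.00645), and ZAT10 and the calmodulin-like gene CML38 rose by 1.16 and 1.33. CML38 was the 1 gene called of 12 tested calmodulin-like genes. Kinase genes of the MEKK-like MAPKKK group, gathered after values were seen, held 3 rising members of 9 tested. They were MAPKKK13, MAPKKK14 and MAPKKK21, with log2 fold changes of 1.28, 1.33 and 2.79.

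Volatile and lipid-derived products formed another group of higher genes, of which 4 of 6 tested members rose and 0 fell in a list gathered after values were seen. TPS04, the geranyllinalool synthase, was at 8.43, 9.21 and 17.0 CPM in GLDT::NAC052 and at 1.101, 2.29 and 3.59 CPM in GLDT::5'truncatedNAC052 (log2 fold change 2.31, adjusted p = 0.0423). CYP82G1, which acts next in the formation of the homoterpene TMTT, was at 7.90, 13.3 and 19.5 CPM against 1.34, 0.809 and 5.68 CPM (log2 fold change 2.38, adjusted p = 0.0312). HPL1, a hydroperoxide lyase gene, was at 21.5, 26.9 and 22.5 CPM against 9.13, 9.68 and 8.72 CPM (log2 fold change 1.36, adjusted p = 0.0259). Both lines were tight for HPL1, which was called from the 6 libraries alone as well.

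Genes of other hormones moved in part. From a gibberellin list of 22 tested genes, gathered after values were seen, 4 rose and 1 fell. GA3OX1, which makes active gibberellin, was at 5.23, 5.56 and 2.87 CPM in GLDT::NAC052 and at 9.73, 14.4 and 9.56 CPM in GLDT::5'truncatedNAC052 (log2 fold change -1.30, adjusted p = 0.0259). GA2OX6, which inactivates gibberellin, was at 58.4, 71.9 and 90.5 CPM against 26.1, 11.7 and 40.4 CPM (log2 fold change 1.5, adjusted p = 0.0317), and GA2OX2 of the same family rose by 1.07. RGL3, a DELLA repressor, was at 21.7, 31.9 and 23.5 CPM against 8.09, 8.90 and 10.6 CPM (log2 fold change 1.48, standard error 0.27, adjusted p = 0.00792). The receptor gene GID1B rose by 1.42. None of the other receptor and DELLA genes of the list was among the calls.

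Of 18 tested abscisic acid, drought and cold genes, 4 rose and 0 fell, with a median log2 fold change of 0.51. The dehydrin gene ERD10 was at 1046, 1298 and 1426 CPM in GLDT::NAC052 and at 464, 211 and 634 CPM in GLDT::5'truncatedNAC052 (log2 fold change 1.53, adjusted p = 0.0254). LTI30, another dehydrin gene, was at 44.3, 44.7 and 52.5 CPM against 15.7, 17.5 and 24.0 CPM (log2 fold change 1.31, adjusted p = 0.0275). RD29A was at 1621, 2094 and 1775 CPM against 668, 423 and 1032 CPM without overlap and missed the threshold (adjusted p = 0.121), but passed it with the replicate number as a block on the 6 libraries. The cytokinin oxidase genes CKX4 and CKX5 rose by 1.17 and 1.04, 2 of 6 tested in a list gathered after values were seen. Of 11 ethylene genes 1 rose, ERF1, from 0.188 to 0.516 CPM in GLDT::5'truncatedNAC052 to 0.617 to 2.004 CPM.

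Abscisic acid receptor genes differed from the groups above in the position of the other lines. PYL5 was at 23.7, 22.7 and 22.0 CPM in GLDT::NAC052 and at 10.7, 9.04 and 7.61 CPM in GLDT::5'truncatedNAC052 (log2 fold change 1.32, standard error 0.17, adjusted p = 0.00271), and its means in the reference, activation-tagged and CRISPR/Cas lines were 21.1, 25.7 and 18.9 CPM. For PYL4 the line means were 25.6 CPM in GLDT::NAC052, 12.3 CPM in GLDT::5'truncatedNAC052 and 33.6 to 38.96 CPM in the other lines. PYL6 was at 1.98 to 2.89 CPM against 0.598 to 1.08 CPM, with means of 2.28 to 3.15 CPM in the other lines. For these genes GLDT::5'truncatedNAC052 was thus the line that stood apart, and the other 6 tested receptor genes of the family, which was gathered after values were seen, were not called.

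Among all 292 higher genes this position was rare. The mean of all 3 other lines was more than 1.5 times that of GLDT::5'truncatedNAC052 for 4 genes, PYL4, PYL5, PYL6 and CYCA1;2. For 260 of the 292, the GLDT::NAC052 mean exceeded 1.5 times the mean of each of the 3 other lines. The reference mean lay below both GLDT lines for 249 genes, between them for 41 and above both for 2, and the median log2 CPM of the 292 genes was 4.19 in GLDT::NAC052, 2.75 in GLDT::5'truncatedNAC052, 2.04 in the reference, 2.18 in CRISPR/Cas and 1.39 in activation-tagged plants. The reference and activation-tagged libraries were sequenced on lane 1, so that line and lane cannot be told apart for them. AT2G22880, a VQ motif protein gene, was at 5.13, 12.01 and 18.04 CPM in GLDT::NAC052 and at 1.05, 0.809 and 2.26 CPM in GLDT::5'truncatedNAC052 (log2 fold change 3.09, adjusted p = 0.0177). It had 0 counts in each of the 9 other libraries, which allows a level of up to 0.0705 to 0.118 CPM for a floor of 3 counts per library.

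**Figure D4:**
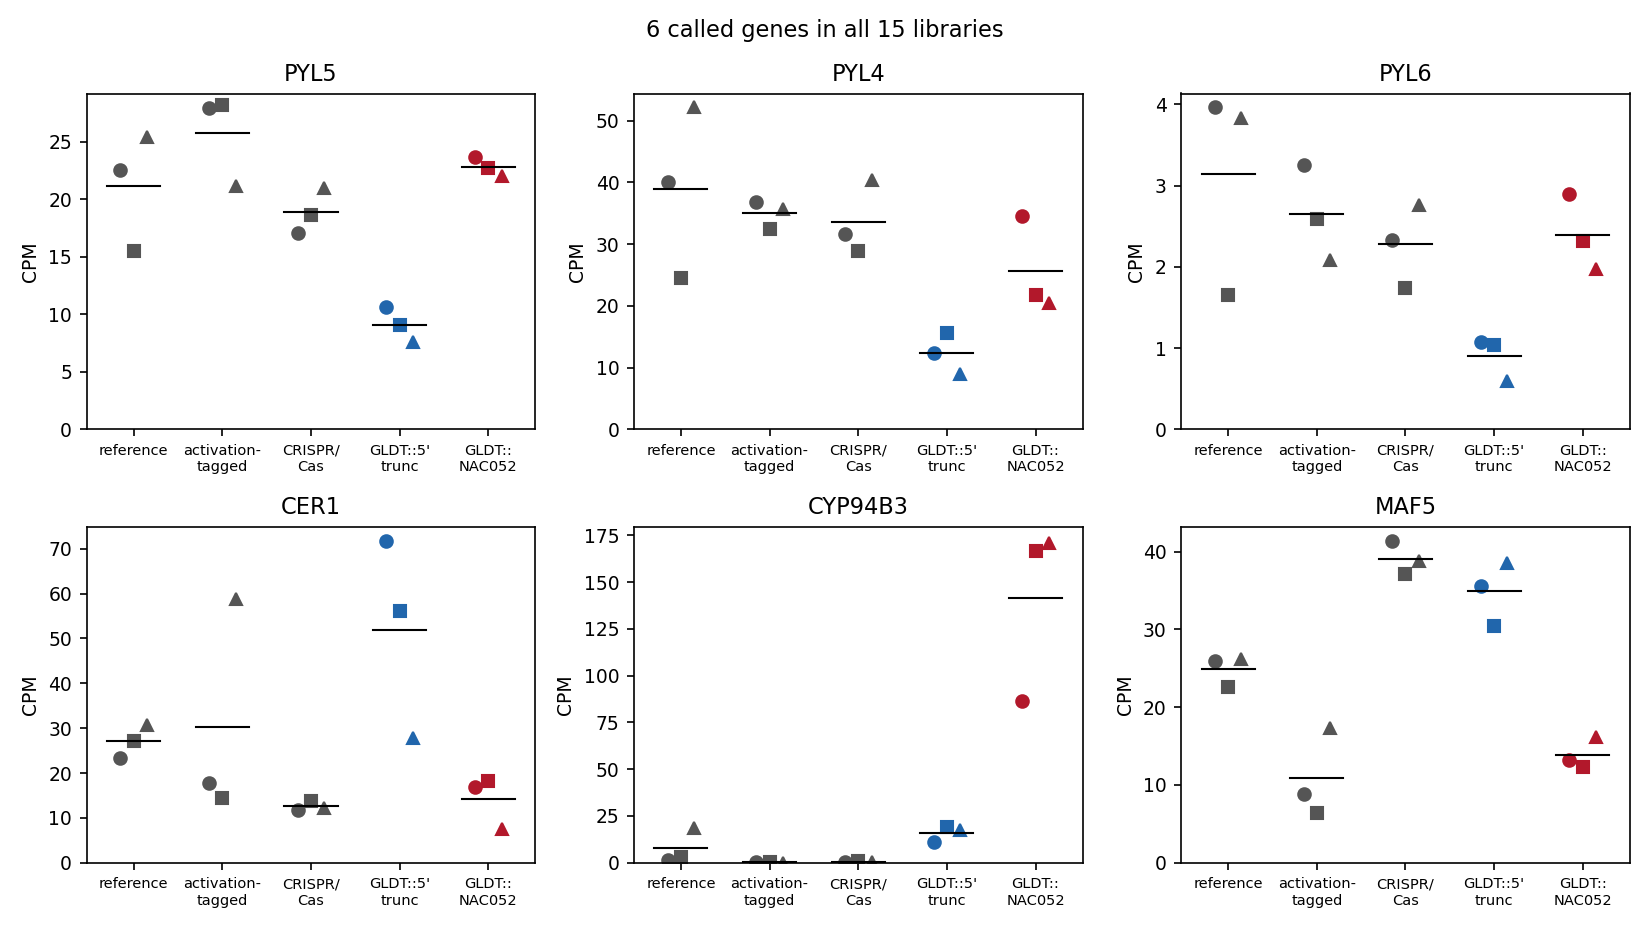
Level in CPM of 6 differential genes in the 15 libraries, by line, with circles, squares and triangles for replicates 1, 2 and 3 and a bar for the mean of each line. The means of PYL4, PYL5 and PYL6 are lowest and that of CER1 is highest in GLDT::5'truncatedNAC052, whereas CYP94B3 is highest in GLDT::NAC052; MAF5 is low in GLDT::NAC052 and in the activation-tagged line.

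Among the 53 genes lower in GLDT::NAC052 was CER1. CER1, required for the alkanes of cuticular wax, was at 16.8, 18.16 and 7.56 CPM in GLDT::NAC052 and at 71.6, 56.2 and 27.8 CPM in GLDT::5'truncatedNAC052 (log2 fold change -1.87, standard error 0.48, adjusted p = 0.0301). Its means in the other lines were 27.1, 30.3 and 12.6 CPM, with 1 activation-tagged library at 58.8 CPM, and it was the 1 of the 53 lower genes for which the mean of each other line was below that of GLDT::5'truncatedNAC052 by more than 1.5-fold. XTH31, a xyloglucan-modifying enzyme gene, had the largest fall among called genes with separate groups and a mean of at least 1 CPM, from 6.50, 7.03 and 2.66 CPM in GLDT::5'truncatedNAC052 to 0.654, 1.31 and 0.254 CPM (log2 fold change -2.86, adjusted p = 0.0258). Of 23 tested genes of its family 1 fell and 3 rose, XTH18, XTH23 and XTH24. Among 21 expansin genes, EXPB1 and EXPA11 fell, with log2 fold changes of -1.43 and -1.04, and EXLA2 rose by 1.08. Of the beta-xylosidase genes, also gathered after values were seen, BXL1 and BXL3 fell, with log2 fold changes of -1.12 and -1.0, and that of BXL2 was -0.65.

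MAF5, a MADS-box gene of a group of floral repressors, was at 13.2, 12.4 and 16.1 CPM in GLDT::NAC052 and at 35.6, 30.5 and 38.6 CPM in GLDT::5'truncatedNAC052 (log2 fold change -1.33, standard error 0.25, adjusted p = 0.0089). It was the only lower gene among the 13 called from the 6 libraries alone, and its means in the other lines were 24.9, 10.8 and 39.1 CPM. None of the 10 tested genes of the flowering time list was called by edgeR, DESeq2 or limma voom, and 1 had an unadjusted p under 0.05. AT1G19960, annotated only as a transcription factor, was at 5.96, 4.96 and 9.49 CPM against 21.1, 30.4 and 24.9 CPM (log2 fold change -1.90, standard error 0.23, adjusted p = 0.00257). By the same limits, the other genes with the largest falls were AT5G25240, UGT73C6, AT4G26288, MYB48 and PUP7, with log2 fold changes of -2.02, -2.01, -1.70, -1.50 and -1.31.

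Photosystem genes held no call. None of 35 tested photosystem, light-harvesting and Rubisco genes was called by edgeR, DESeq2 or limma voom. An unadjusted p under 0.05 was seen for 6 of them, against 4945 of all 19663 genes tested. All 35 had a log2 fold change below 0, with a median of -0.22. For 2 of the 35 the libraries were separate downward, against 10.5% of all genes, and their summed level overlapped, at 126000 to 167000 CPM in GLDT::NAC052 and 141000 to 194000 CPM in GLDT::5'truncatedNAC052. In a list of the chloroplast NDH complex gathered after values were seen, all 24 tested genes had a log2 fold change below 0 with a median of -0.42, 4 were separate and 2 fell. NdhM was at 14.1, 13.9 and 7.89 CPM in GLDT::NAC052 and at 31.6, 34.5 and 17.0 CPM in GLDT::5'truncatedNAC052 (log2 fold change -1.21, adjusted p = 0.0124). CRR7, an assembly factor, was at 8.05, 9.98 and 6.16 CPM against 17.8, 20.6 and 10.6 CPM (log2 fold change -1.02, adjusted p = 0.0176). Replicate 3 was the lowest library of both lines for both genes. Of all genes tested, 47.6% had a log2 fold change above 0.

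Salicylic acid and PR genes had no call among 16 tested, with 3 at an unadjusted p under 0.05, 1 called by DESeq2 and 0 by limma voom. Over all 19663 genes tested, 4945 had an unadjusted p under 0.05. PR1, the usual marker of that pathway, was at 3.80, 8.87 and 19.2 CPM in GLDT::NAC052 and at 0.403, 0.698 and 3.72 CPM in GLDT::5'truncatedNAC052 (adjusted p = 0.0903), and its mean in the CRISPR/Cas line was 938 CPM. Heat shock genes had no call either, with a median of 1.29 over 7 genes, of which 5 had an unadjusted p under 0.05, 2 were called by DESeq2 and 0 by limma voom. HSP70 was at 50.1, 18.23 and 136 CPM against 13.7, 8.51 and 47.9 CPM, so that replicate 3 was the highest and replicate 2 the lowest of both lines. With the replicate number as a block on the 6 libraries, PR1, HSP70 and other heat shock genes passed the threshold.

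Of 11 indole glucosinolate and camalexin genes 2 rose, the regulator MYB34 and the oxidase CYP79B2, by 1.31 and 1.05, and 0 fell. In 16 lists without a call, including those just given and those of aliphatic glucosinolates, the clock, photorespiration, starvation, flavonoids, iron, cell division, auxin conjugation and 3 protein families, 268 genes were tested. Of these, 65 had an unadjusted p under 0.05, 5 were called by DESeq2 and 0 by limma voom. Over all 19663 genes tested, these numbers were 4945, 451 and 379. The SAUR growth genes had 2 rising and 0 falling members of 56 tested and a median of -0.35.

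Genes that the study had tabulated from these libraries were also compared, and their counts are no independent evidence. Of 33 genes listed as responsive in several lines, 6 were higher in GLDT::NAC052 than in GLDT::5'truncatedNAC052, namely AT2G22880, LTI30, ABCG1, XTH23, CKX5 and AT5G06570, and 0 were lower. Of 15 genes listed as lower in GLDT::NAC052 and CRISPR/Cas, 3 were lower, AT4G26288, AT3G62070 and BXL1, and 0 higher.

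**Figure D5:**
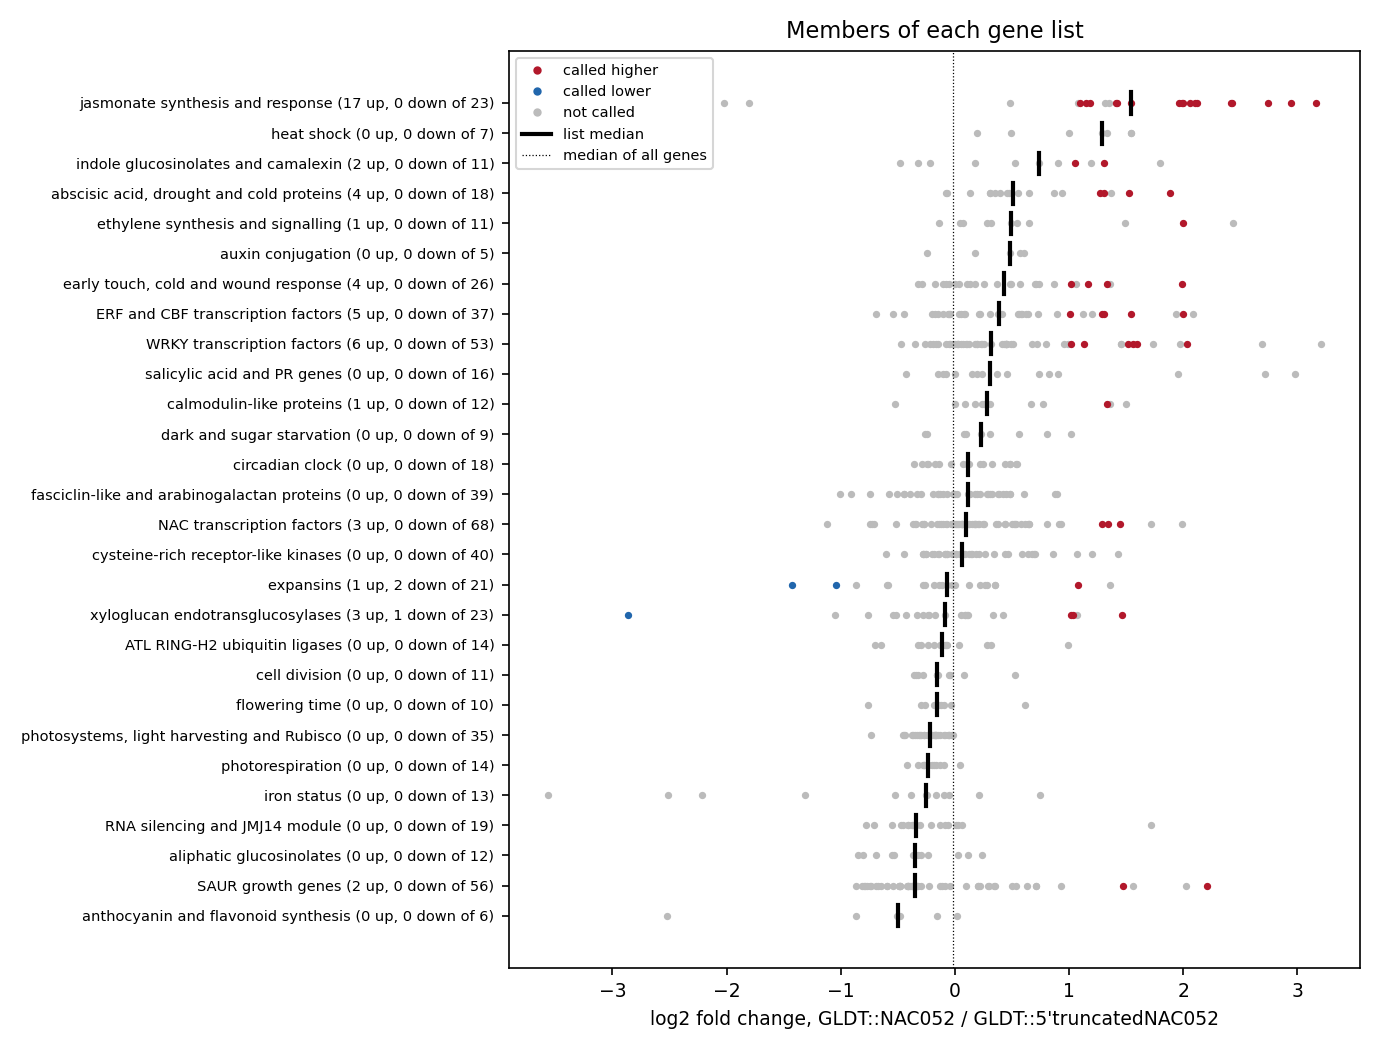
Log2 fold change of GLDT::NAC052 over GLDT::5'truncatedNAC052 for the tested members of the pathway and family lists (marker lists, lists of the study and lists gathered after values were seen are not drawn), with counts of members called up and down. Red and blue points are members called higher and lower, grey points were not called, black bars are list medians and the dotted line is the median of all genes (-0.02); of the lists drawn, that of jasmonate synthesis and response has the highest median, 1.54, with 17 of its 23 members called.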

How the data were processed

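RNA from complete rosettes was sequenced as stranded single-end mRNA libraries. According to the study, the authors used CLC Genomics Workbench for mapping to TAIR10, and the deposited values are raw read counts per gene without normalization. Whether counting used the strand is not given in the sources used here. A further 6 count columns match no sample and were not used. Low genes were removed with filterByExpr of edgeR (minimum count 10, minimum total 15), which left 19663 of 32833. Counts were scaled by TMM and tested with edgeR 4.0.16 (quasi-likelihood) in R 4.3.3, with all 15 libraries and a term per line. A gene was called at a Benjamini-Hochberg adjusted p under 0.05 and a fold change above 2 or below 0.5. CPM values use the scaled library sizes, and all fold changes are those of the model. The floor of 3 counts covers counting error only. A simulation with 200 changed genes and a dispersion of 0.05 tested the steps.

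The lines compared, the gene lists and the tests were chosen with earlier results of these data known, and lists said to be gathered after values were seen were added later. Named genes are NAC052, NAC050 and JMJ14, the 12 largest rises and 10 largest falls among called genes with separate groups and a mean of at least 1 CPM, up to 4 members per list with the largest change, and called genes of 2 tables of the study. Other members are named to complete a pathway. Alternatives were library totals or median-of-ratios factors, other filters, the 6 or 9 libraries of the lane, replicate blocks, DESeq2 1.42.0, limma 3.58.1 voom without and with a weight per line, and leaving out each library. Restricting both lines to replicates 1 and 2 was added after seeing the data. Promoters are the 250 bases before the RefSeq start in TAIR10.1.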

Additional observations from a re-analysis of the deposited data

How the results depend on the processing

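The 345 called genes depended most on which libraries set the spread and on whether the replicate number was a term. From the 6 libraries, 13 genes were called without that term and 486 with it. Scaling, filters, DESeq2 and limma voom gave 324 to 451, against 187 with limma voom and a weight per line, 256 with the 9 libraries of the lane and 13 with the 6 libraries alone, of which 11 were among the 345. There, 15 genes had an adjusted p under 0.05 and 3244 an unadjusted one. Without the fold limit 1680 genes passed, and 699 with an unadjusted p and the fold limit. Leaving out 1 library gave 97 to 664 calls, and restricting both lines to replicates 1 and 2, chosen after seeing the data, gave 356. Each of the 345 kept its direction in every model that tested it. These models share libraries and 327 of the 345 had separate groups, so the kept direction is no independent evidence. NAC052 had a log2 fold change of 1.72 in DESeq2 as well, with an adjusted p of 0.036 there, and 0.998 to 2.22 when a library was left out, with an adjusted p of 0.0104 without GLDT::NAC052 replicate 2. Its adjusted p ranged from 0.0104 to 0.344 over the alternatives, and the exact permutation p on the deposited counts was also 0.3.

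Among 96 other genes named, log2 fold changes of the alternatives kept their side of the threshold in 1306 of 1723 values, missed it in 392 and newly passed it in 22. The direction turned in 3. VSP1 and VSP2, not called, ran from -2.56 to 1.22 and from -2.34 to 1.21 when a library was left out, the highest being without GLDT::5'truncatedNAC052 replicate 2. JMJ14 was at 0.00731 with replicates 1 and 2 alone.

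The labels number the replicates but name no shared batch. Deviations from the line mean correlated at 0.138, 0.093 and 0.439 between libraries of numbers 1, 2 and 3 and at -0.314 to 0.238 between unlike numbers. Since not every pair exceeded 0.1, the numbers were not taken to pair the libraries, and not every library correlated best with its own number. With the replicate number as a block, 400 genes were called from 15 libraries and 486 from 6, of which 330 and 311 were among the 345. For the jasmonate list the block gave 19 and 20 of 23. In the block of 6 libraries, 8 named genes newly passed the threshold (JMT, MYC2, RAP2.6, PR1, AT2G38240, HSP70, LOX2 and RD29A), 7 no longer did (EXPA11, AT3G62070, AG, XTH23, AT4G26288, BXL3 and CRR7), and 3 of the 7 heat shock genes were called. For NAC052 the block gave log2 fold changes of 1.59 and 1.37.

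The p-values of the main model rest on a spread estimated from all 15 libraries, not on the 3 against 3 alone. Each side is 3 libraries of 1 line, so the effect of a line cannot be told apart from that of its construct.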
